A study of Sus scrofa with 20 samples.

Results

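The genes of this account encode transcription factors that give tissues their position in the body plan. Loci of the deposited count table were taken where the Ensembl identifier mapped to a single pig symbol of the HOXA, HOXB, HOXC, HOXD, TBX, MEIS, PBX, PITX, sine oculis homeobox (SIX2 and relatives) or IRX families. The rule found 29 of 23483 loci, for 28 symbols, since HOXA2 was the symbol of 2 loci (XLOC_016419 and XLOC_016688). They comprised 6 HOXA, 4 HOXB, 2 HOXC, 4 HOXD, 5 TBX, 4 sine oculis, 2 IRX, 1 PBX and 1 PITX loci, and no MEIS locus. Of the 67 symbols of the name table that met the rule, 8 occurred only in a locus spanning several genes and 31 had no locus of their own or shared. TBX15 was not in the name table, HOXA5 occurred only in a shared locus, and HOXC8, HOXC9, TBX1, PITX1, IRX1 and MEIS1 matched no locus and were not analysed here.

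HOX proteins are homeodomain factors whose genes lie in 4 clusters, and their order along a cluster follows the order along the head-to-tail axis in which embryonic cells express them. Many adult connective tissues, fat among them, keep part of this pattern, so that fat depots of different body sites differ in their HOX, TBX, sine oculis and IRX transcripts. PBX and MEIS proteins bind DNA together with HOX proteins, Polycomb complexes keep HOX genes silent, and Trithorax complexes keep them active.

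The tissue was backfat, the subcutaneous fat of the back, of 20 pigs of the Italian Large White breed. The groups were 10 females and 10 castrated males, with 1 library per animal. All shared housing and diet, reached slaughter at 150 to 160 kg and an age of 233 to 250 days, and the labels name no treatment or allele. Mean age was 244 ± 5.64 days for the females and 240 ± 4.53 days (SD) for the castrated males. Polyadenylated RNA from tissue frozen in liquid nitrogen was sequenced as paired reads. Intact males were not among the groups, so sex and castration cannot be told apart.

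Total counts per library ran from 25754778 to 51248122, so 1 CPM (counts scaled to library size) stood for 25.8 to 51.2 counts. Fat cell markers, of which 6 of 12 listed symbols had a locus, summed to between 2320 and 6234 CPM. Skeletal muscle markers (2 of 15 with a locus) summed to between 0 and 4.17 CPM, epidermis markers (2 of 10) to between 11.8 and 19.3 CPM, and no mesothelium marker had a locus. Castrated male 1 stood apart in macrophage markers, at 832 CPM against 52.8 to 481 CPM elsewhere, and had the lowest sum of fibroblast markers, 6573 CPM. The libraries labelled female 10 and castrated male 10 went against their labels at KDM6A, an X-linked gene: they held 40.5 and 63.5 CPM, where the other 9 females held 54.4 to 72.7 CPM and the other 9 castrated males 33.8 to 46.8 CPM. Their ratio of FPKM (fragments scaled to transcript length and library) to CPM also scattered most over the 8769 loci at 10 CPM or more. The tests were also run without castrated male 1 and without the pair of libraries numbered 10.

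By mean FPKM, the scale on which genes can be compared, IRX3, TBX2, SIX2 and HOXB7 were among the highest of the loci whose counts and FPKM both showed them, with TBX3, HOXC6, TBX18, PBX3 and HOXD9 below them. At a mean of 1 CPM or more stood 16 of the 29 loci, where 67.2% of all loci stood, and 9 reached 10 CPM, against 37.3% of all loci, and these shares were not tested. In each of the 20 libraries 13 loci held 1 CPM or more. Of the 16 HOX loci 5 reached a mean of 1 CPM, and of the 13 other loci 11 did. The HOX loci below 1 CPM include HOXB3, HOXB6, HOXD4 and HOXA7. Their identifiers also lie in loci spanning several HOX genes, so their levels are uncertain. At a mean of 1 FPKM or more stood 8 of the 16 HOX loci and 10 of the 13 others, against 59.4% of all loci. HOXB3, HOXB6 and HOXD4 are among those 8. The contrast between HOX and other loci was not tested. In bulk tissue, fewer cells of a type and less RNA per cell cannot be told apart.

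**Figure D1:**
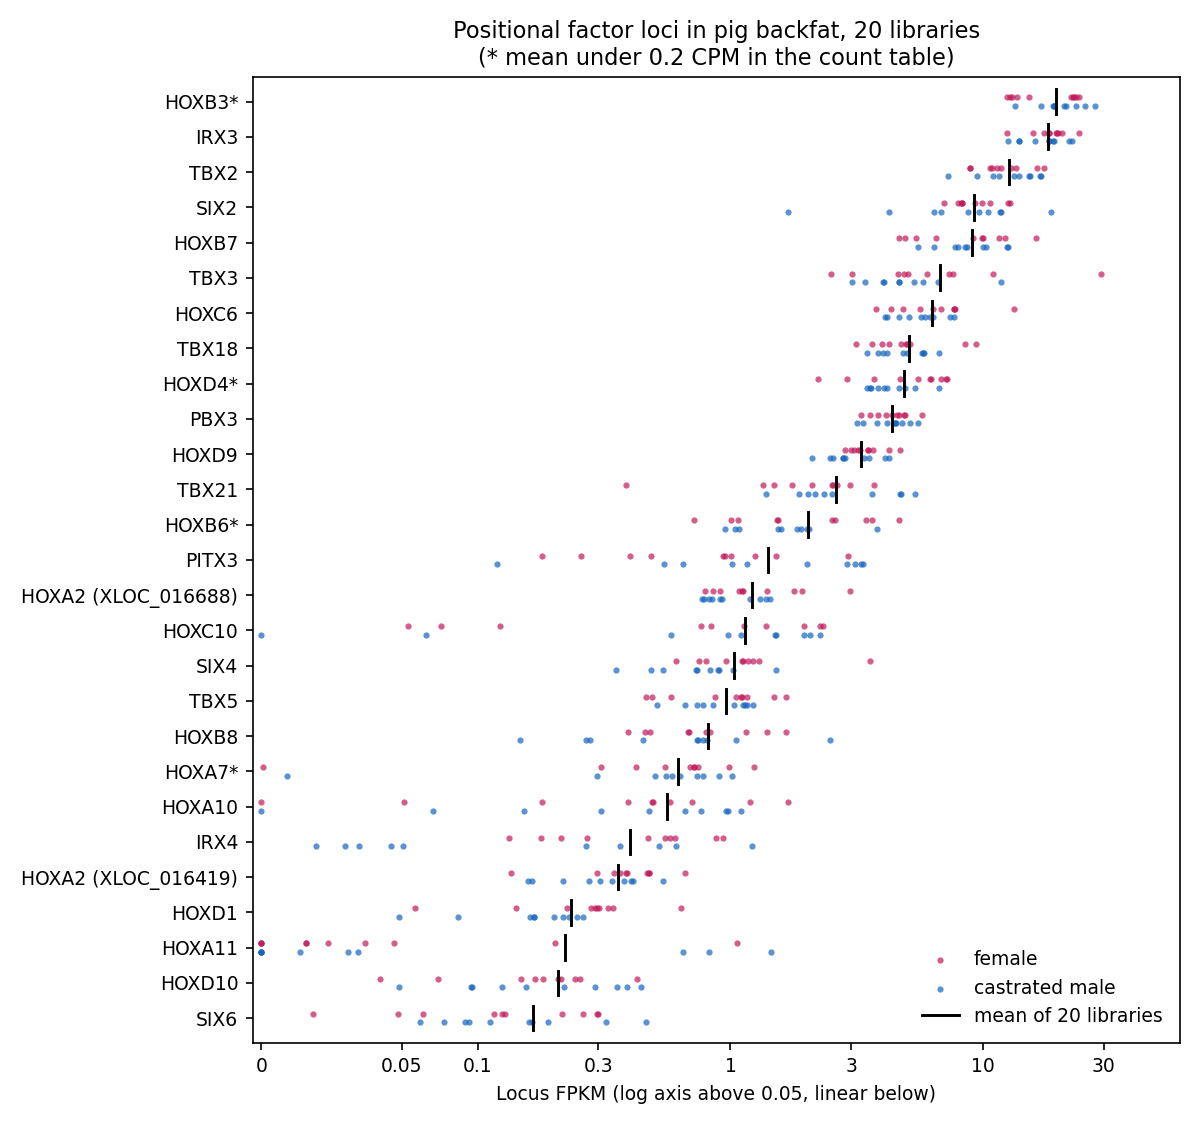
FPKM of 27 positional factor loci in 20 libraries (points, females and castrated males; vertical bars, mean of 20), on an axis that is logarithmic above 0.05 and linear below. The means run from 19.4 FPKM for HOXB3 to 0.16 FPKM for SIX6, and asterisks mark 4 loci whose counts were at or near 0.

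Among the Iroquois factors, IRX3, whose human gene lies beside FTO and has been tied to fat cell browning, was the most abundant member by FPKM with matching counts. It held between 12.5 and 23.9 FPKM with a median of 18.2 FPKM, and 27.5 to 51.5 CPM. Its lowest CPM was in the library labelled castrated male 10 and its highest in castrated male 2, with no library set apart by CPM. The ratio of FPKM to CPM of IRX3, however, lay 0.88 above its median on the log2 scale in castrated male 10. This ratio lay 0.48 above the median in female 10 and at most 0.04 above it elsewhere, so FPKM and CPM disagree on IRX3 in the libraries numbered 10. IRX4, best known from the heart ventricle, averaged 0.40 ± 0.34 FPKM (SD, n = 20). Castrated males 1, 3, 4, 6 and 8 held 1 to 3 counts of IRX4, at 0.03 to 0.08 CPM. The other castrated males held 0.42 to 0.91 CPM and the females 0.20 to 1.34 CPM, so values under 0.1 CPM were all in castrated males, while the sexes overlapped.

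The sine oculis factors, homeodomain proteins that drive growth of muscle, kidney and head structures with EYA cofactors, were represented by 4 loci. SIX4 ran at 1.03 ± 0.67 FPKM (SD, n = 20), and its CPM ranged from 2.82 in castrated male 8 through a median of 5.43 to 21.0 in female 7. The next library after female 7 held 9.19 CPM. Only 2 of 15 listed skeletal muscle markers had a locus. They summed to 0.32 CPM in female 7 and to at most 4.17 CPM in any library, and the part of muscle in the SIX4 level was not tested.

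SIX2, a factor that keeps kidney progenitors undifferentiated, held 1.69 to 18.6 FPKM with a median of 9.02 FPKM. Its CPM ran from 3.28 in castrated male 1 through a median of 12.7 to 27.0 in castrated male 4. The females lay within 10.1 to 19.0 CPM, and both extremes were castrated males. SIX6, an eye and pituitary factor, was the member of lowest mean FPKM, 0.16 ± 0.11 (SD, n = 20), and held 5 to 98 counts.

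The T-box factors TBX2, TBX3, TBX5 and TBX18 act in limb, heart and body wall development, and TBX2 and TBX3 are transcriptional repressors. TBX2 held 7.29 to 17.4 FPKM with a median of 12.3 FPKM, and 28.2 to 77.7 CPM. TBX18 held 3.13 to 9.37 FPKM with a median of 4.90 FPKM, with its highest CPM, 40.2, in female 3. TBX5, which sets forelimb identity, held 0.46 to 1.66 FPKM with a median of 1.04 FPKM, and stayed between 1.05 and 3.79 CPM. All 3 genes were present at 1 CPM or more in every library.

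TBX3 differed from them in its range. Females held 11.1 to 132 CPM with a median of 25.5 CPM, and castrated males 12.2 to 51.5 CPM with a median of 20.9 CPM. The 132 CPM of female 9 rested on 4114 counts and was followed by 55.1 CPM in female 2 and 51.5 CPM in castrated male 9. Summed marker levels of female 9 lay inside the range of the other libraries for each marker list with a locus. TBX21, known as T-bet, the factor of type 1 helper T cells and NK cells, held 1.05 CPM in female 2 and 3.74 to 12.4 CPM in the other 19 libraries. The 5 T and NK cell markers with a locus summed to 13.8 CPM in female 2 and to 59.5 CPM, their highest, in castrated male 1, which also held the highest TBX21 level. The sum was lowest, 13.05 CPM, in female 7, which was among those 19 libraries, and the part of T cell content in TBX21 was not tested.

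PBX3, a cofactor that binds DNA with HOX proteins, held 3.16 to 5.71 FPKM with a median of 4.49 FPKM, and 10.4 to 18.3 CPM. Its highest library was 1.75 times its lowest, the narrowest range among the members at 10 CPM or more, where IRX3 followed with 1.87 times. PITX3, a lens and dopamine neuron factor whose gene lies beside ELOVL3, had the widest range among the members at 1 CPM or more. Females held 0.22 to 5.93 CPM with a median of 1.98 CPM, and castrated males 0.14 to 6.85 CPM with a median of 2.49 CPM. The lowest values, 6 counts each, were in castrated male 1 and the library labelled female 10, with 10 counts in female 7, and the highest in castrated males 4, 5 and 6 and female 6, at 5.82 to 6.85 CPM.

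Among the HOX genes of the middle groups of the clusters, HOXB7 and HOXC6, which pattern the trunk at thoracic levels, were the highest with matching counts. HOXB7 held 4.64 to 16.1 FPKM with a median of 8.87 FPKM, and HOXC6 held 3.77 to 13.3 FPKM with a median of 6.01 FPKM. Female 7 was highest for both by CPM, at 17.7 CPM for HOXB7 and 42.9 CPM for HOXC6, and the next libraries held 13.8 and 25.6 CPM. HOXB8, next to HOXB7, was lower, at 0.81 ± 0.54 FPKM (SD, n = 20), with 0.33 to 2.99 CPM. Its highest FPKM, 2.47, was in the library labelled castrated male 10.

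The anterior genes HOXA2 and HOXD1, which act in the hindbrain and neck, were low. The HOXA2 loci averaged 1.22 ± 0.53 FPKM (XLOC_016688) and 0.36 ± 0.13 FPKM (XLOC_016419), and HOXD1 0.23 ± 0.13 FPKM (SD, n = 20 each). HOXD1 held 4 to 43 counts per library, and both HOXA2 loci also gave counts in every library.

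Genes of the posterior groups 9 to 11, which pattern the lumbar and sacral trunk and the limbs, fell into a steady gene and genes that were nearly absent from some animals. HOXD9 was present throughout, with 135 to 377 counts, 4.08 to 9.23 CPM and a median of 3.22 FPKM. HOXC10 held 1, 1 and 2 counts in females 1, 2 and 3 and 2 and 1 counts in castrated males 1 and 3, but 7 to 77 counts in the other 15 libraries. HOXA10 gave 0 to 3 counts in the same 5 libraries and 5 to 81 counts in the other 15. Low counts of these genes of 2 different clusters were thus in the same animals, though HOXA10 left no clear gap, at 3 against 5 counts. HOXD10 overlapped, with 3 to 21 counts in the 5 libraries and 5 to 32 counts in the other 15. The deposited series began with female 1, castrated males 1 and 2, female 2, castrated male 3 and female 3. All 5 libraries with low HOXC10 counts thus lay at its start. Only castrated male 2, at 19 HOXC10 and 9 HOXA10 counts, stood among them. The part of sampling or processing order in these counts was not tested.

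HOXA11 divided the libraries further. It held 98 counts in castrated male 5, 74 in female 4, 57 in castrated male 7, 50 in castrated male 9 and 16 in female 7, and 0 to 3 counts in the other 15. Those 5 libraries were also the highest for HOXA10 by CPM, and 4 of them, all but female 7, were the highest for HOXD10, at 25 to 32 counts. HOXD10 itself held 3 to 32 counts and HOXA11 did not pass the filter on low counts.

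Depth overlapped between the 5 libraries with fewer than 3 HOXC10 counts and the rest. Their totals were 35944783 to 51248122 counts, and those of the other 15 libraries 25754778 to 43806528 counts. Fat cell markers summed to 2716 to 5754 CPM in the 5 libraries and to 2320 to 6234 CPM in the 15. Fibroblast markers summed to 6573 to 21107 CPM against 13792 to 20852 CPM, and macrophage markers to 202 to 832 CPM against 52.8 to 481 CPM. Of the 15, only castrated males 6 and 8, at 481 and 366 CPM, held more than 202 CPM of macrophage markers. The rest of the 15 held at most 165 CPM. The part of cell makeup in these HOX levels was not tested, and the labels do not give the position of each sample along the back.

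**Figure D2:**
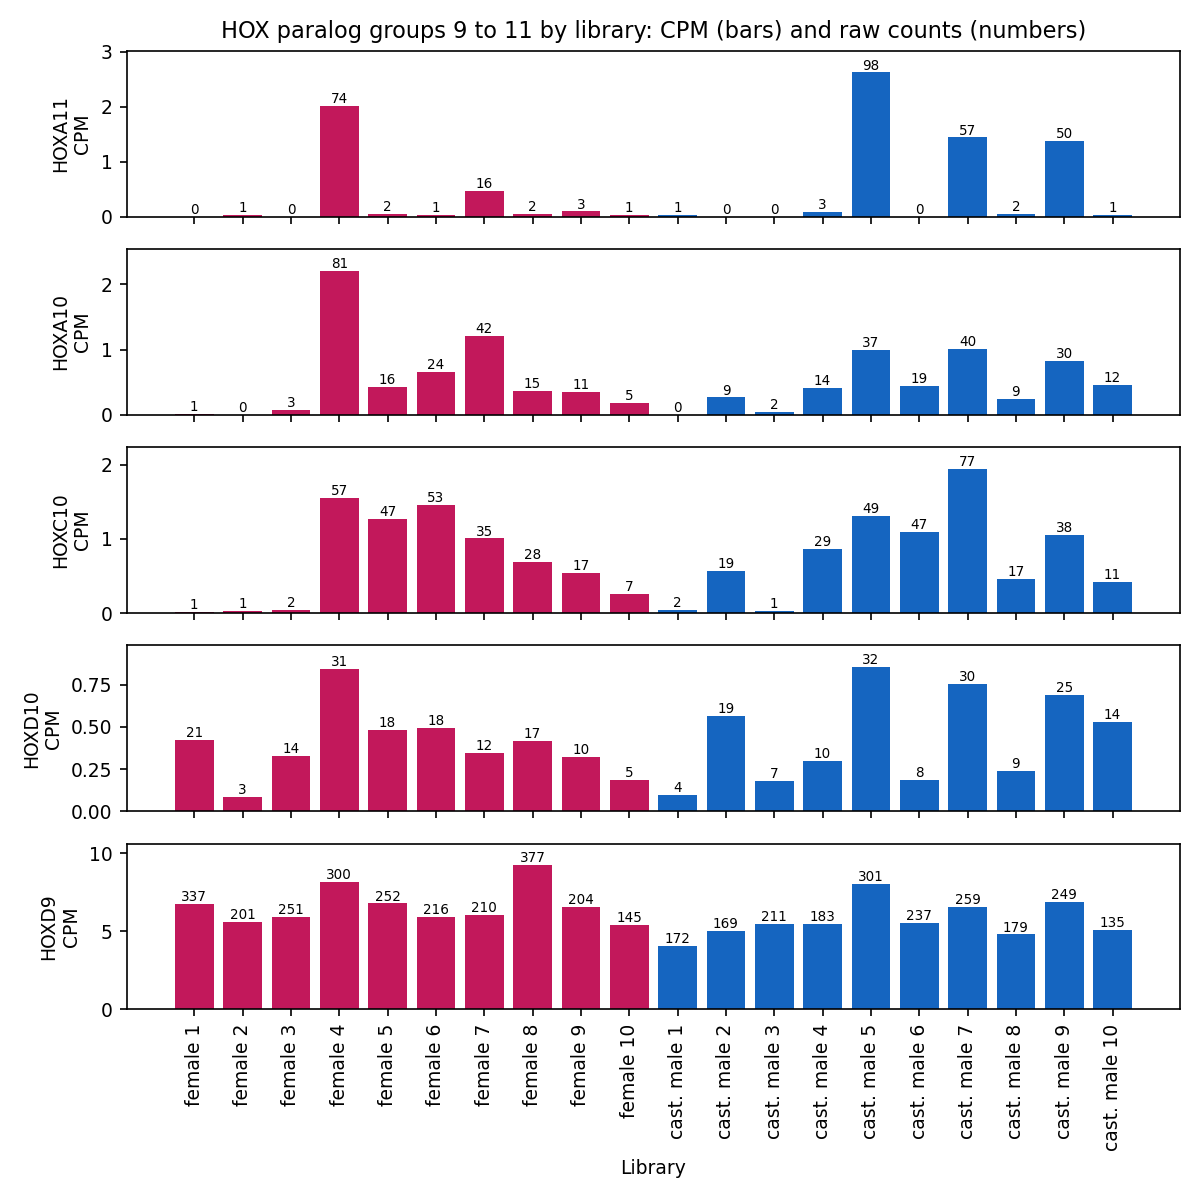
CPM (bars) and raw counts (numbers above) of HOXA11, HOXA10, HOXC10, HOXD10 and HOXD9 in each of the 10 female and 10 castrated male libraries. HOXC10 and HOXA10 hold 0 to 3 counts in females 1, 2 and 3 and castrated males 1 and 3, while HOXD9 holds at least 135 counts in every library.

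Since the libraries fell into separate groups for HOXC10, correlations were computed within the 15 libraries with 3 or more HOXC10 counts. They covered HOXC10, HOXA10, HOXD10 and HOXD9, on log2 CPM with sex means removed. The genes and the libraries were both chosen after the data were seen, so p-values adjusted over these 6 pairs are no independent evidence. All 6 pairs had a positive Pearson r past an adjusted permutation p of 0.05. HOXC10 and HOXA10, from different clusters, gave r = 0.787 and rho = 0.754 (n = 15, two-sided permutation p = 0.00059, adjusted over 6 pairs 0.00354), and r = 0.776 without the 2 libraries farthest from the HOXC10 median. HOXA10 and HOXD10 gave r = 0.701 and rho = 0.629 (permutation p = 0.00357, adjusted 0.0107), and 0.525 without the 2 farthest libraries. The lowest of the 6 was HOXC10 with HOXD9, at r = 0.544, and its r was 0.386 without the 2 farthest libraries.

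Of the members, 4 gave FPKM without matching counts. HOXB3 was the highest member by FPKM, 19.4 ± 4.69 (SD, n = 20), but held 0 to 10 counts per library. HOXD4 at 4.84 ± 1.48 FPKM, HOXB6 at 2.02 ± 1.09 FPKM and HOXA7 at 0.62 ± 0.31 FPKM held 0 counts in all 20 libraries, where 3 counts, the limit that a count of 0 allows, would be 0.12 CPM in the shallowest library. The identifier of each was also part of a locus spanning several HOX genes, and none of their isoforms had a nearest reference transcript. How reads were divided between such overlapping loci, and whether strand was used, is not given in the sources used here, so the levels of these 4 genes are uncertain.

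The loci spanning several genes, which the rule left out, carried much of the HOX signal. The HOXA3/HOXA5/HOXA7 locus held 165 ± 53.0 CPM and 40.5 FPKM, above every member, HOXD3/HOXD4 held 40.9 ± 9.66 CPM and 10.3 FPKM, HOXB2/HOXB3/HOXB4 held 23.5 ± 5.29 CPM and 7.57 FPKM, and HOXB5/HOXB6 held 5.47 ± 2.34 CPM and 3.64 FPKM (SD, n = 20 each). Which gene of a locus gave the reads cannot be told apart. All 4 were highest in female 7, where HOXA3/HOXA5/HOXA7 held 349 CPM against at most 231 CPM in any other library. Female 7 was also the highest library for 6 of the 25 members with a mean CPM of at least 0.4, among them SIX4, HOXB7, HOXC6, HOXD1 and HOXA2 (XLOC_016419). Female 2 was the lowest for 5 of the 25, and neither count was set beside the same over all loci. Female 7 held the lowest sums of macrophage markers, 52.8 CPM, and of T and NK cell markers, 13.05 CPM, and the highest of epidermis markers, 19.3 CPM. The part of these markers in the levels of female 7 was not tested.

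**Figure D3:**
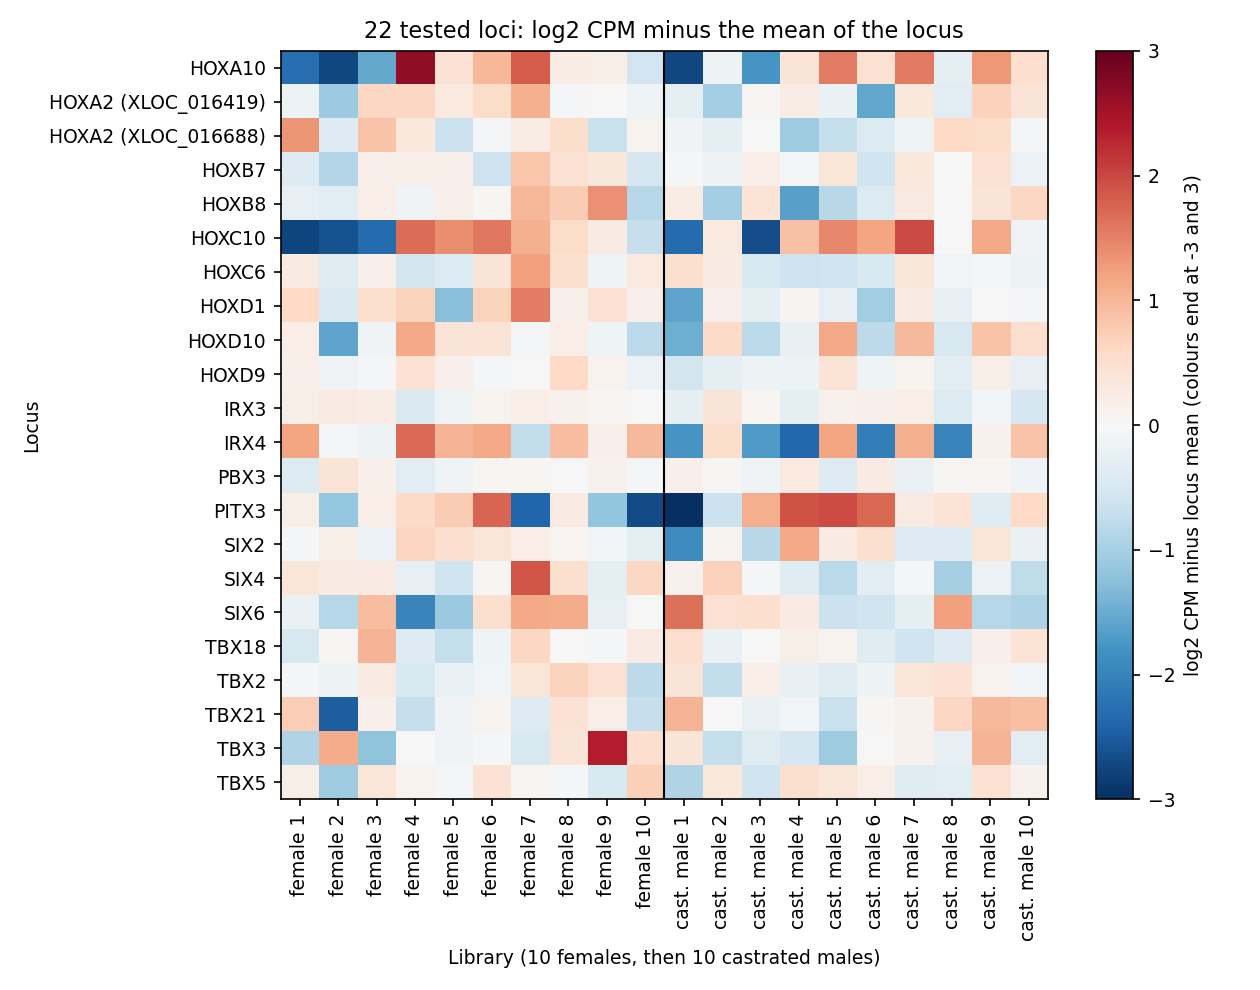
Log2 CPM of 22 tested loci in each library minus the mean of the locus, with colours ending at -3 and 3. Columns are 10 females and then 10 castrated males, and the HOXA10 and HOXC10 rows are darkest blue in females 1, 2 and 3 and castrated males 1 and 3.

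Steadiness was described as the SD of log2 CPM over the 20 libraries after each sex was centred on its mean. The 16 members at 1 CPM or more had a median SD of 0.48, ranging from 0.22 to 1.49, and all 15770 loci at that level had a median of 0.35. Spread falls as the level rises, so each member was read against loci in its own band of mean CPM. Only 3 of the 16, namely PBX3, HOXD9 and TBX5, lay below the median SD of their band. The 9 members at 10 CPM or more had a median of 0.44, against 0.26 over 8769 loci.

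Among the steadiest members were PBX3 with an SD of 0.22, IRX3 with 0.26, HOXD9 with 0.26 and TBX2 with 0.41. Of the loci in their bands, 25.4% had a lower SD than PBX3, 13.3% than HOXD9, 56.9% than IRX3 and 85.1% than TBX2. Thus IRX3 and TBX2 were steady among positional factors and not among loci of their level. The most variable were PITX3 with 1.49, TBX3 with 0.83, TBX21 with 0.75, HOXB8 with 0.71 and SIX2 with 0.62. Below 1 CPM, HOXC10 reached 1.67 and HOXA10 1.57, above 99.4% and 99.1% of the loci from the filter's limit to 1 CPM, and IRX4 reached 1.17, above 95.0%. The edgeR dispersion of each locus, a measure that allows for counting error, lay below the trend at that level for 8 of the 16 members and for 73.5% of all loci at 1 CPM or more.

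**Figure D4:**
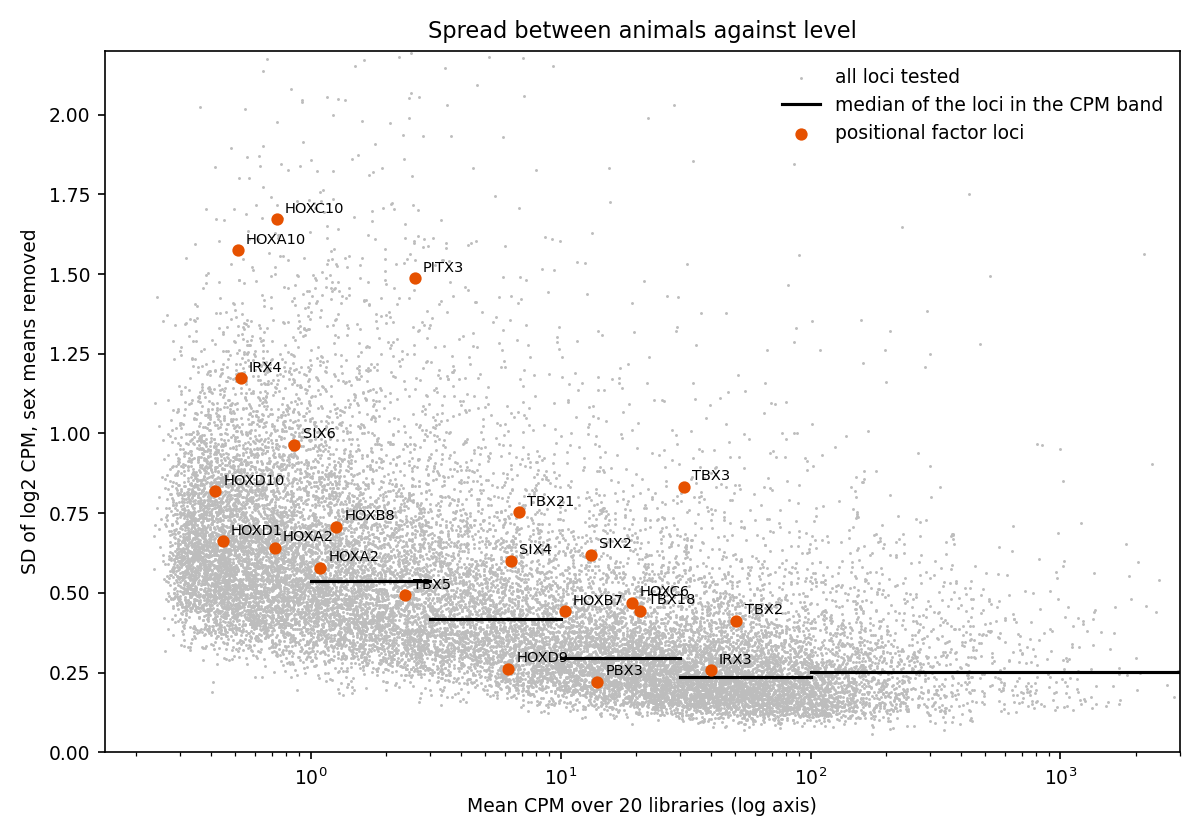
SD of log2 CPM, each sex centred on its mean, against mean CPM (log axis) for all tested loci (grey), 22 tested positional factors (orange) and the median of each band of mean CPM (black lines). PBX3, HOXD9 and TBX5 lie below their band's line, and 48 loci lie above the top of the axis at 2.2.

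Correlation among the members at 10 CPM or more was tested by pairs. With 20 libraries, a pair that did not pass can still be moderately correlated. Of 36 pairs of these 9 genes none passed an adjusted permutation p of 0.05 (20 libraries, sex means removed, two-sided, Pearson and Spearman), and 3 pairs had an unadjusted Pearson p under 0.05. Among the highest r were HOXB7 with TBX2 at 0.486 (adjusted permutation p = 0.457), PBX3 with TBX3 at 0.379 and TBX2 with HOXC6 at 0.371. Among the lowest were SIX2 with HOXC6 at -0.447, TBX2 with SIX2 at -0.407, PBX3 with HOXB7 at -0.291 and TBX18 with SIX2 at -0.274.

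A wider set, all 16 members at 1 CPM or more and 120 pairs, was added after the data were seen, and 3 pairs passed, 2 of which follow. HOXB8 and TBX2, a pair not adjacent in the RefSeq gene order, gave r = 0.770 and rho = 0.780 (n = 20, permutation p = 5e-05, adjusted 0.006), and r = 0.807 without the 2 libraries farthest from the HOXB8 median. SIX4 and HOXC6 gave r = 0.749 and rho = 0.704 (adjusted permutation p = 0.009), and r = 0.572 without the 2 farthest libraries. PITX3 and SIX2 did not pass, at r = 0.637 (adjusted permutation p = 0.0768).

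No positional factor passed the test between females and castrated males. The edgeR quasi-likelihood test with Benjamini-Hochberg adjustment called 0 of the 24 tested members and 0 of 21587 loci (0%). DESeq2 called 6 loci (0.0278%), limma on FPKM 12 (0.0523%) and edgeR without the libraries labelled female 10 and castrated male 10 called 18 (0.0834%), with 0 members in each. That pair of libraries was singled out for going against the sex labels, so the 18 loci are no independent evidence. At an unadjusted p under 0.05 stood 2 of the 24 members and 935 loci (4.33%). Of the 24 members 16 had a higher fitted level in females and 8 in castrated males, and 10979 of 21587 loci were higher in females. The median log2 difference (females minus castrated males) was 0.10, against 0.00 over all loci. The CPM of the sexes overlapped for every tested member, as for all loci: groups that did not overlap occurred at 0 of 21587 loci (0%).

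HOXD1 held 0.14 to 1.24 CPM in females, with a median of 0.56 CPM, and 0.10 to 0.48 CPM in castrated males, with a median of 0.35 CPM. Its log2 difference was 0.75 (SE 0.31, edgeR unadjusted p = 0.0246, adjusted p = 1), and 0.50 with age in the model and 0.44 on FPKM. SIX4 held 3.69 to 21.0 CPM in females, with a median of 6.73 CPM, and 2.82 to 9.19 CPM in castrated males, with a median of 4.71 CPM. Its log2 difference was 0.64 (SE 0.27, edgeR unadjusted p = 0.0274, adjusted p = 1), and without the libraries labelled female 10 and castrated male 10 it was 0.58 with an unadjusted edgeR p of 0.0641. The ranges overlapped broadly for both genes.

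The other members of smallest p with a higher fitted level in females were HOXD9 (log2 difference 0.22), IRX4 (0.88) and TBX3 (0.61). Those with a lower one were TBX21 (-0.45), PITX3 (-0.74), HOXD10 (-0.15) and SIX6 (-0.13). Beside TBX21, 4 of the 5 T and NK cell markers also had a lower fitted level in females, with a median log2 difference of -0.65 over the 5, and 0 of 6 macrophage marker loci had a higher one. None of these markers passed the edgeR threshold, and their part in the TBX21 difference was not tested. HOXC10 stood at -0.18 (SE 0.65), SIX2 at 0.11 (SE 0.25) and TBX5 at 0.05 (SE 0.22). Without castrated male 1, SIX2 moved to 0.0051, SIX6 to 0.15, HOXC10 to -0.32 and HOXD10 to -0.27, and without the libraries labelled female 10 and castrated male 10, HOXD10 moved to -0.035. With age in the model HOXC10 stood at -0.39, HOXD10 at -0.23 and SIX6 at -0.30, and 13 of the 24 members were above 0, with 1 member at an unadjusted p under 0.05. On FPKM the TBX3 difference was 0.34. The edgeR adjusted p of the named members was 1 in each case. The smallest standard error of the members was that of PBX3, 0.105 on the log2 scale, whose difference was -0.007.

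No positional factor passed the test for age at slaughter, with sex in the model. The edgeR test of the slope called 0 of the 24 members and 0 of 21587 loci (0%), DESeq2 called 5 loci (0.0232%) and limma on FPKM 1 (0.00436%), with 0 members in each, and at an unadjusted p under 0.05 stood 0 members and 1189 loci (5.51%). Fitted slopes were above 0 for 20 of the 24 members and for 10836 of 21587 loci. Their medians were 0.17 log2 per 10 days and 0.00. The members were measured in the same 20 libraries and are not independent, and this difference was not tested. Among the positive slopes of smallest p were PITX3 at 0.92, HOXD1 at 0.51 and TBX5 at 0.29 log2 per 10 days. The 4 negative slopes were PBX3 at -0.17, TBX3 at -0.55, IRX3 at -0.03 and TBX18 at -0.02 log2 per 10 days, and HOXC10 and SIX2 stood at 0.52 and 0.04. The TBX3 slope was -0.16 with no sex term and -0.30 on FPKM.

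**Figure D5:**
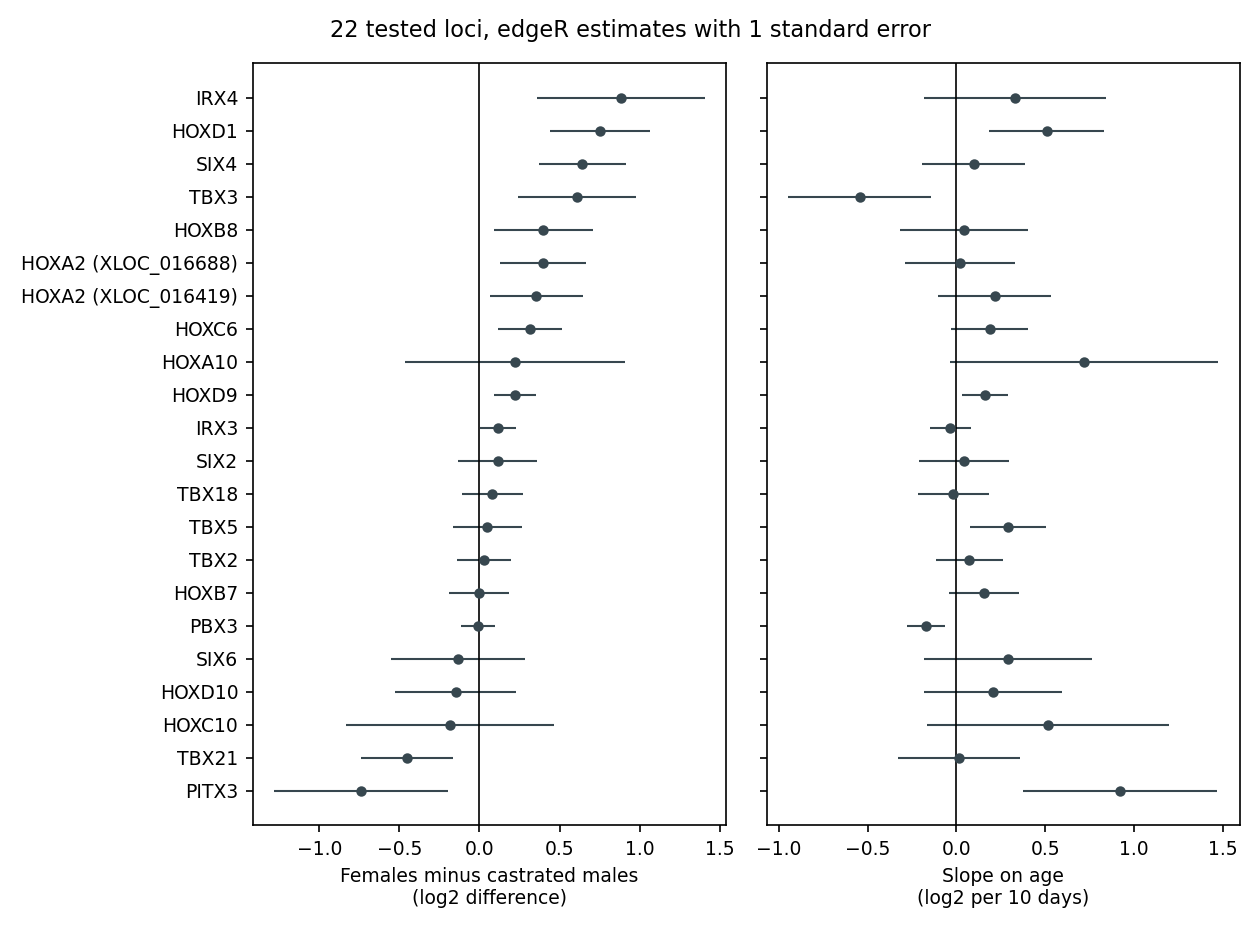
edgeR estimates (points) with 1 standard error (lines) for 22 tested loci: the log2 difference of females minus castrated males (left) and the slope on age in log2 per 10 days (right). IRX4, at 0.88, has the highest difference and PITX3, at -0.74, the lowest, and none passed the adjusted threshold.

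Of the listed machinery around these genes, the part that had a locus was expressed. It likewise gave no edgeR call, as 0 of 21587 loci did, and listed genes without a locus were not measured. Of 16 listed HOX partner and regulator genes 7 had a locus, all above 1 CPM, where 67.2% of all loci stood. Among them the retinoic acid receptor RARA held 39.6 ± 10.1 CPM and 17.0 FPKM. ALDH1A2, which makes retinoic acid, held 30.2 ± 16.4 CPM and 10.4 FPKM. GDF11, a ligand that sets trunk and tail levels, held 36.2 ± 13.0 CPM and 8.52 FPKM (SD, n = 20 each). Of 23 Polycomb genes 16 had a locus, among them RBBP7 at 142 ± 19.1 CPM and 82.2 FPKM. EZH1 held 79.1 ± 19.9 CPM and 29.6 FPKM, and SUZ12 118 ± 11.8 CPM but 9.11 FPKM. EZH2 held 7.30 ± 1.47 CPM and 1.95 FPKM. Of 15 Trithorax genes 10 had a locus, with KMT2E at 115 ± 20.0 CPM and 16.2 FPKM. The genes named were not picked by FPKM, so others of each list can stand higher on that scale. Each of these lists had 0 members past the edgeR threshold for sex and for age. KDM6A, the H3K27 demethylase of the Trithorax list, had a log2 difference of 0.56 (edgeR adjusted p = 0.602), and DESeq2 on all 20 libraries called it. Its own level singled out the libraries labelled female 10 and castrated male 10, so a fit without them would be no independent test of it.

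Other positional and patterning factors, a list of 43 symbols, had a locus for 14 symbols (17 loci). All stood at 1 CPM or more, against 67.2% of all loci, and none passed the edgeR threshold for sex or age. MEOX2, a homeobox gene of the somites, was the highest at 55.1 ± 12.5 FPKM (SD, n = 20), above every positional factor member. TWIST2, a mesenchymal repressor, held 17.3 ± 3.73 FPKM, PRRX2, a limb mesenchyme factor, 14.0 ± 2.69 FPKM, and SHOX2, a limb and skeletal factor, 12.7 ± 3.28 FPKM (SD, n = 20 each), near the level of TBX2. EN1, which marks embryonic dorsal dermis in the mouse, was the symbol of 2 loci at 1.17 and 2.50 FPKM.

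The number of isoforms differed between the members. HOXD9, HOXD10, HOXA10, HOXD1, IRX4 and SIX6 had 1 isoform each. IRX3 divided its FPKM over 4 isoforms at 34.7, 36.7, 27.6 and 0.95%. TBX3 had 3 isoforms at 11.8, 52.6 and 35.6%. Isoforms of HOXB8, PITX3 and HOXA2 (XLOC_016688) could not be tied to their locus by FPKM sums.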

How the data were processed

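Per the submitters' processing notes the tools were TopHat2 2.0.8, Bowtie2 2.1.0.0, Cufflinks 2.1.1 and DESeq2 on Sscrofa10.2. Which tool did what, the annotation, the counting and the strand setting were not given in the sources used here. Raw counts were deposited by the authors for 23483 Cufflinks loci. The authors also deposited FPKM for those loci and for 63418 isoforms. Isoforms were tied to loci where their FPKM summed to that of the locus within 0.5%. Identical counts occurred in 0 of 190 library pairs.

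Symbols came from a table of gene names by Ensembl identifier, and gene order from RefSeq Sscrofa11.1 (names only). CPM were scaled by TMM factors, with a prior count of 2 before taking log2. Counts were fitted with the edgeR 4.0.16 quasi-likelihood test (R 4.3.3, filterByExpr by sex, 21587 loci kept, Benjamini-Hochberg over all of them, 0.05) for sex, and for age in units of 10 days with sex in the model. Correlations used 100000 permutations, two-sided. DESeq2 1.42.0, limma 3.58.1 on log2(FPKM + 0.1) at a mean FPKM of at least 0.1, other scalings, no filter, age or no sex in the model, and fits without castrated male 1 or the libraries labelled female 10 and castrated male 10 were alternatives. The edgeR fit was tested on simulated data. Other steps ran in Python 3.11.15 with matplotlib 3.10.9, pandas 2.3.3, scipy 1.17.1 and numpy 2.4.6.

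Groups follow the labelled sex. Within each sex, library numbers follow the order of the deposited samples, and they pair no animals. Each library is 1 animal, so p-values measure the spread between animals. Intervals and limits on counts cover counting error only.

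Members, marker lists and gene lists were chosen with earlier results of these data known. Named were all members at 1 CPM or more, per comparison the 5 of smallest p in each direction, the 5 steadiest and 5 most variable, the 5 highest and lowest correlated pairs, chosen factors whatever their result, and up to 4 genes per list. The patterns in HOXA10, HOXA11 and IRX4 and in female 7 were chosen after their values were seen. Some genes that the rule for names takes in are not reported here, while the counts over all members include them.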

Additional observations from a re-analysis of the deposited data

Results flagged for a closer look

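In groups of 10 libraries, 3 of 32 sets of log2 CPM values had a highest or lowest library set apart from the others by more than Dixon's critical value for 10 values. Chance sets apart about 1 in 20 such groups. TBX21, the T cell factor T-bet, was low in female 2, at 1.05 CPM, where the nearest female held 3.74 CPM. The 5 T and NK cell markers with a locus summed to 13.8 CPM there, against 13.05 to 43.9 CPM over the females, and their part was not tested. PITX3 was low in castrated male 1, at 0.14 CPM on 6 counts, where the nearest castrated male held 1.10 CPM. That library also held the highest sum of macrophage markers, 832 CPM, whose part was not tested. SIX4 was high in female 7, at 21.0 CPM on 732 counts, where the nearest female held 8.77 CPM. On the CPM scale itself, looked at after seeing the data, 4 sets passed: SIX4 in female 7 again, TBX3 in female 9, at 132 CPM where the nearest female held 55.1 CPM, HOXC6 in female 7, at 42.9 CPM against 25.4 CPM, and PITX3 in female 6, at 5.93 CPM against 2.96 CPM. TBX21 and castrated male 1 at PITX3 were set apart on the log2 scale alone.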

How the results depend on the processing

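No paired analysis was possible because library numbers follow the order of the deposited samples and pair no animals. No member was called for sex or age under any setting run. Loci called for sex numbered 0 in the main edgeR fit, 6 with DESeq2, 12 with limma on FPKM and 18 without the libraries labelled female 10 and castrated male 10. Loci called for age numbered 0, 5 with DESeq2 and 1 with limma on FPKM. Correlated pairs numbered 0 at 10 CPM and 3 at 1 CPM. Of 168 alternative values of named members, 157 kept their direction and 11 turned, all small. Without castrated male 1, or without the libraries labelled female 10 and castrated male 10, the sex difference ranged from -0.1945 to 0.1535 for SIX6 and from -0.0243 to -0.0223 for TBX5, and the age slope from -0.0391 to 0.0381 for TBX18 and from -0.0382 to 0.1071 for SIX2. With age in the model the sex difference was -0.0871 for TBX5. The age slope of IRX3 was 0.0452 on FPKM and 0.0101 with no sex term, and that of TBX18 was 0.0131 with upper-quartile scaling, 0.0666 on FPKM and 0.0133 with no sex term. The cause was not tested. Members counted as expressed ranged from 13 to 22, and their median SD from 0.44 to 0.49. Depth limits the members under 1 CPM, which rest on few counts, and sex and castration cannot be told apart.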
